A study of Homo sapiens with 12 samples.

Results

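Keratins are the intermediate filament proteins of epithelial cells. The 10 keratin genes described here, KRT4, KRT5, KRT6A, KRT6B, KRT7, KRT8, KRT16, KRT17, KRT18 and KRT19, were chosen by symbol from a table of 11529 genes, and all 10 were in it. They were measured by RNA sequencing of MDA-MB-468 and of MDA-MB-231, both human cell lines of triple-negative breast cancer (TNBC, without oestrogen receptor, progesterone receptor or amplified HER2). Each line had 3 control and 3 SMARCA4 KO samples, 12 samples in all. SMARCA4 encodes BRG1, the ATPase of the SWI/SNF chromatin remodelling complex, and the study asked what its loss does in a line of the basal/stem-like subtype (MDA-MB-468) and in one of the mesenchymal-like subtype (MDA-MB-231).

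The control samples were titled wild type and described as control. The paper used parental cells and also cells given a nontargeting CRISPR/Cas9 vector, and whether the sequenced controls carried that vector was not stated. The KO samples came from cells transduced with a lentiviral CRISPR/Cas9 vector carrying a guide to SMARCA4 and selected with puromycin. The selected cells were a pool and not 1 clone, so a KO sample can hold cells with an intact gene. The labels do not say whether the 3 replicates of a group were separate cultures, so the p-values measure the spread between these samples, which may be technical. SMARCA4 RNA in MDA-MB-468 cells was at 44.3% of the control FPKM after KO, and in MDA-MB-231 cells at 32.7%. On the log2 scale it fell by 1.16 in the first (SE 0.0751, limma adjusted p = 0.0137) and fell by 1.57 in the second (SE 0.0611, limma adjusted p = 0.00143), and it was called in both. In MDA-MB-468 cells that call was lost without control replicate 2 (adjusted p = 0.0696), control replicate 3 (0.0565) or KO replicate 2 (0.0748).

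Keratin filaments are built from pairs of a type I and a type II keratin, and a protein that lacks its partner is usually degraded. KRT16, KRT17, KRT18 and KRT19 are type I, and KRT4, KRT5, KRT6A, KRT6B, KRT7 and KRT8 are type II. In the breast, KRT5 and KRT17 mark the basal layer of the ducts, and KRT8 with its partner KRT18, KRT19 and KRT7 mark the luminal cells. KRT6A and KRT6B with their partner KRT16 are known from epithelia under stress or in repair, and KRT4 from the moist, non-cornified lining of mouth and oesophagus. Here KRT5, KRT6A, KRT6B, KRT16 and KRT17 are called basal, KRT7, KRT8, KRT18 and KRT19 luminal, and KRT4 mucosal.

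All 6 type II genes lie on chromosome 12 of GRCh37, the build the reads were aligned to, and KRT18, a type I gene, lies beside KRT8 there. KRT4 runs from 53200333 to 53207900 on the minus strand, KRT5 from 52908359 to 52914314, KRT6A from 52880960 to 52887041 and KRT6B from 52840435 to 52845930, all minus, and KRT7 from 52626304 to 52645970 on the plus strand. KRT8, on the minus strand from 53290971 to 53343738, overlaps KRT18, on the plus strand from 53342655 to 53346690, by 1084 bases of annotated gene. The libraries were made with a stranded kit, but whether the counting used the strand was not stated in the sources used here. On chromosome 17, KRT19 runs from 39679869 to 39684560, KRT16 from 39766030 to 39772151 and KRT17 from 39775694 to 39781094, all on the minus strand.

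KRT6A and KRT6B are near-identical copies, and the values of either depend on how reads were divided between them. Their coding sequences are both 1692 bases long and differ at 42 bases, an identity of 97.5%, with a longest identical run of 269 bases. The stretch where they differ most, coding bases 663 to 722, is shown as an example of where a read can tell them apart. Differing bases also lie elsewhere in the coding sequence. It lies in exon 2 of 9 of either gene, on the minus strand of chromosome 12 of GRCh37, at chr12:52885339-52885398 for KRT6A and chr12:52844223-52844282 for KRT6B. The capitals mark the 9 bases of the 60 that differ.
KRT6A: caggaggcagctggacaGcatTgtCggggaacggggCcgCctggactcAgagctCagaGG
KRT6B: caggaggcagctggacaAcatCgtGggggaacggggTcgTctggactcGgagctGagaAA

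Most of the other members share sequence too. KRT8, KRT16, KRT17, KRT18 and KRT19 share it with pseudogenes among others, and KRT5 with KRT6A, KRT6B and KRT6C. Of the windows of 50 bases along the reference transcript, 46.6% for KRT6B, 39.2% for KRT6A, 39.2% for KRT8 and 36.7% for KRT18 also occurred in the transcript of another annotated gene. At 100 bases the shares were 24.4% for KRT6B, 18.2% for KRT6A, 7.12% for KRT8 and 0% for KRT18. KRT16 shared 21.8% and KRT17 17.4% of the shorter windows, and 7.12% and 0.353% of the longer ones. KRT4 shared 0% at either length, KRT5 4.52% and 1.64%, KRT7 1.08% and 0%, and KRT19 1.79% and 0%. The levels of KRT6A and KRT6B, and to a lesser degree those of KRT8, KRT16, KRT17 and KRT18, are therefore less certain than that of KRT4.

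The promoters of KRT4 and KRT5 are printed because KRT4 was the member called after KO and KRT5 the one that differed most between the lines. Promoters of 3 of the 10 members, KRT4, KRT5 and KRT8, were in the RefSeq table used, which is on GRCh38.p14, so its positions cannot be set beside those above. The KRT4 sequence is the minus strand of chr12:52814117-52814366 and that of KRT5 the minus strand of chr12:52520395-52520644, in both the 250 bases before the start site. The capitals in KRT4 mark the TATAA motif.
KRT4: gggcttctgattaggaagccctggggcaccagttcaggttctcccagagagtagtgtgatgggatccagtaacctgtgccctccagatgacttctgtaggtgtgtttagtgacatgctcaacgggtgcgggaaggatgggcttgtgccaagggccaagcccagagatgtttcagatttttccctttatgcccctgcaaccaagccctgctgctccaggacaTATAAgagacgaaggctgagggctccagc
KRT5: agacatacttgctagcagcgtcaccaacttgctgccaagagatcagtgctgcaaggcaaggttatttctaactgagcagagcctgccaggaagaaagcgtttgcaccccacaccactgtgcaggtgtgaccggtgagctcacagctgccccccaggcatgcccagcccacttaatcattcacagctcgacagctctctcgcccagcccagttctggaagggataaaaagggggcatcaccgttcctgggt

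Each promoter was searched on both strands, over these bases and the 50 after the start, for TATAA (the core of the TATA box), for TGANTCA (the core of the AP-1 site) and for GGGCGG (the core of the Sp1 site). TATAA began 29 bases before the start of KRT4 and was the only match in the 3 promoters. Of all 35116 promoters of the table, 20.4% held TATAA, 7.71% held TGANTCA and 45% held GGGCGG. A match is a description of letters, and the absence of one says nothing of the factor.

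The deposited values are log2(FPKM + 1), where FPKM are fragments per kilobase of transcript, scaled to the size of the library, which can be compared between genes because they are per length. The deposited table gives no read depth. Between samples of one group the correlation across genes was 0.989 to 0.995, and 11293 to 11362 genes were above 0 per sample. Of the 6 epithelial markers listed, EPCAM and CDH1 among them, all were in the table, and their summed FPKM was 755.9 to 802.6 in MDA-MB-468 control cells and 94.7 to 124.9 in MDA-MB-231 control cells. Of 5 mesenchymal markers 4 were in it, without SPARC, at 15.5 to 20.7 and at 1605 to 1830. None of 5 fibroblast and 4 leukocyte markers was in the table.

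Keratin levels divided the lines. MDA-MB-468 control cells had FPKM of at least 3 in every sample for all 10 genes, and MDA-MB-231 control cells had substantial levels only of the 4 luminal ones, as the plot of levels by sample shows. A gene entered the table only if its mean and its SD over the samples were at least 1 FPKM. The 5 basal keratins and KRT4 were below 2 FPKM in every MDA-MB-231 sample and so entered through MDA-MB-468, which fixes their direction between the lines. All 10 members were called higher in MDA-MB-468 control cells, against 32.7% of all genes called higher there, and this count is given as a description. A gene is called where limma's p, adjusted by Benjamini-Hochberg across all 11529 genes, is under 0.05 and the log2 difference exceeds 0.5 in size.

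KRT5, the basal keratin that pairs with KRT14, was at 340, 502 and 599 FPKM in the MDA-MB-468 control samples and at 0, 0 and 0.02 FPKM in those of MDA-MB-231. KO samples had 492, 621 and 695 FPKM in MDA-MB-468 cells, against 0, 0 and 0.24 FPKM in the other line. The difference of the log2 levels was 8.86 in control cells (SE 0.186) and 9.12 in KO cells (SE 0.143), the widest of the 10 genes in both. It is given without a p, since the filter had set its direction. KRT17 stood at 67.0, 122 and 154 FPKM in MDA-MB-468 control samples against 0.29, 0.49 and 0.27 FPKM in MDA-MB-231, a log2 difference of 6.34 (SE 0.27). KRT16 had 30.3, 37.7 and 43.5 FPKM against 0.05, 0 and 0.03 FPKM, a log2 difference of 5.20 (SE 0.124). In these genes the MDA-MB-231 values lie close to the smallest value the table can show, 0.01 FPKM, so no fold is given.

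KRT6A and KRT6B were low where they were present. Control samples of MDA-MB-468 had 6.48, 14.5 and 11.7 FPKM of KRT6A and 3.73, 6.15 and 6.72 FPKM of KRT6B. Both are listed at 0 in all 6 MDA-MB-231 samples, and limma's spread for them there comes from the other genes alone. KRT4, the mucosal keratin, was at 47.4, 41.0 and 41.4 FPKM in MDA-MB-468 control samples and is listed at 0 in all MDA-MB-231 control samples. All 10 members lay higher in MDA-MB-468 control cells with no overlap between the lines, as did 43.2% of all genes.

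The luminal keratins were the most abundant members in both lines. KRT19, which lacks the tail domain of other keratins, had 2194, 1886 and 1895 FPKM in MDA-MB-468 control samples and 197.7, 265 and 288 FPKM in MDA-MB-231, a ratio of the mean FPKM of 7.96 and a log2 difference of 3.002 (SE 0.144, limma adjusted p = 4.27e-07). KRT8 had 1634, 1585 and 1593 FPKM against 283, 396 and 456 FPKM, a ratio of 4.24. Its partner KRT18 had 1087, 1102 and 1118 FPKM against 258, 331 and 386 FPKM, a ratio of 3.39, and KRT7 had 1013, 895 and 830 FPKM against 207, 299 and 354.3 FPKM, a ratio of 3.18. The log2 differences of these 3 genes were 2.11, 1.78 and 1.70, with limma adjusted p of 6.50e-06, 7.24e-06 and 5.81e-05.

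After KO the lines were still apart. All 10 members were called higher in MDA-MB-468 KO cells, where 33.2% of all genes were, and here too the filter fixed the direction of KRT4 and the 5 basal keratins, so that nothing is read from the count. The log2 differences were 7.27 for KRT17, 5.87 for KRT16, 3.73 for KRT4, 3.36 for KRT6B, 2.94 for KRT6A, 2.68 for KRT19, 2.18 for KRT8, 1.82 for KRT18 and 1.35 for KRT7. For the 4 luminal genes, which were well above the filter in both lines, the calls in control and in KO cells held in each alternative fitted.

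The order of the levels differed between the groups. In MDA-MB-468 control cells it was KRT19, KRT8, KRT18, KRT7, KRT5, KRT17, KRT4, KRT16, KRT6A and KRT6B, and only KRT4 and KRT16, and KRT6A and KRT6B, had overlapping ranges between neighbours. In KO cells of that line KRT8 and KRT19 overlapped at the top, KRT16 stood above KRT4 with no overlap, and KRT6B and KRT6A overlapped at the bottom. In MDA-MB-231 control cells KRT8, KRT18, KRT7 and KRT19 each overlapped the next, and in the KO cells KRT8 stood apart above KRT7. Below the luminal genes came KRT17 in both groups of MDA-MB-231, at 0.27 to 1.58 FPKM.

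SMARCA4 KO in MDA-MB-468 cells lowered KRT4 and no other member by the call above. KRT4 fell from 47.4, 41.0 and 41.4 FPKM in the control samples to 13.9, 11.8 and 11.5 FPKM in the KO samples, to 28.7% of the mean control FPKM. No KO sample came near a control sample. On the log2 scale it fell by 1.72 (SE 0.0949, limma adjusted p = 0.00885), against a median over all genes of 0.02 for the same difference. Samples of this line with the same replicate number deviated together, and with that number as a block the adjusted p was 0.0278. In bulk samples fewer cells with KRT4 RNA and less of it per cell cannot be told apart. The call was lost without control replicate 2 (adjusted p = 0.0696), KO replicate 2 (0.0679) or KO replicate 3 (0.0600), while the fall itself stayed between 1.66 and 1.80 over 14 alternatives.

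Of the 10 members 1 was thus called, against 2.14% of all genes called and 0.815% called lower. Unadjusted p-values were under 0.05 for 6 members, against 25.1% of all genes. The KO samples were all above the control samples for 4 members, KRT8, KRT16, KRT17 and KRT18, against 17.5% of all genes, and all below for 1, KRT4, against 13.5%. The median log2 difference of the members was 0.30.

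**Figure D1:**
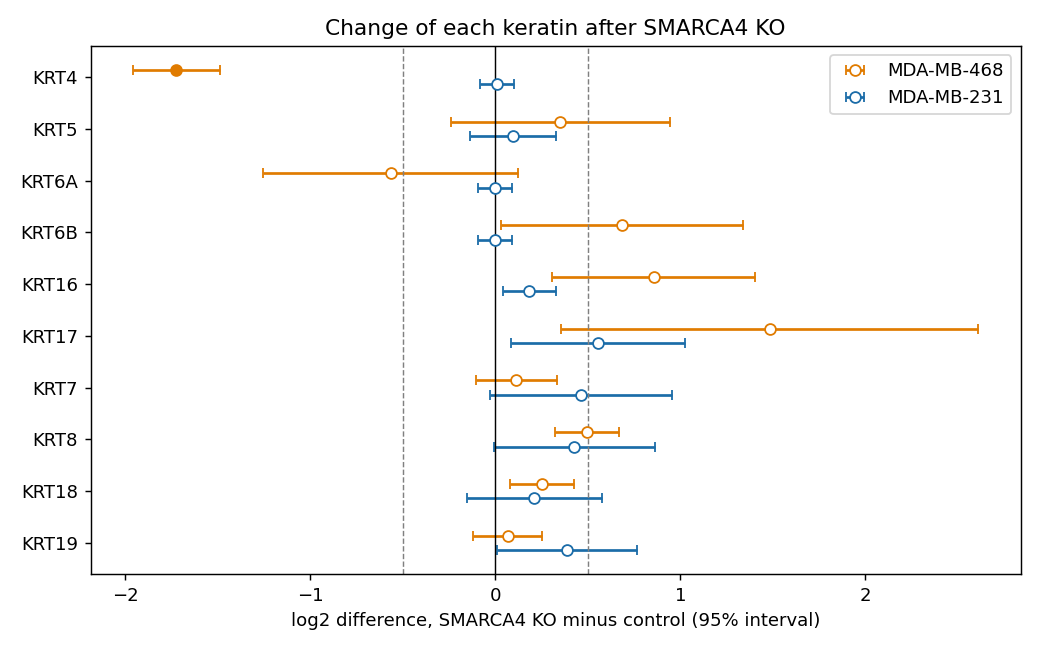
Log2 difference between SMARCA4 KO and control cells for each keratin gene in MDA-MB-468 (orange) and MDA-MB-231 (blue) cells, with limma's 95% interval (n = 3 against 3). The filled point is the 1 called difference, KRT4 in MDA-MB-468 cells, at -1.72, and dashed lines mark differences of 0.5 in either direction. The intervals of KRT6A and KRT6B in MDA-MB-231, where all samples are listed at 0, reflect the spread of other genes.

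Among the basal keratins of MDA-MB-468, KRT17 had the largest difference. This keratin, induced in injured skin and in many carcinomas, was at 175, 349 and 457 FPKM in the KO samples against 67.0, 122 and 154 FPKM in the controls, a log2 difference of 1.48 (SE 0.455). The spread within each group was wide, and without the block the limma adjusted p was 0.122. Replicate 1 was lowest and replicate 3 highest in both groups, and within replicates 1, 2 and 3 the difference was 1.38, 1.51 and 1.56. With the replicate block KRT17 was called (limma adjusted p = 0.0329).

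KRT16 and KRT6B had the same layout. KRT16 was at 49.96, 74.9 and 81.5 FPKM in the KO samples against 30.3, 37.7 and 43.5 FPKM, a log2 difference of 0.85 (SE 0.221, limma adjusted p = 0.0884, and 0.0449 with the block). Same-numbered samples differed by 0.70, 0.97 and 0.89. KRT16 was also called without KO replicate 1 (log2 difference 1.07, limma adjusted p = 0.0384). KRT6B was at 6.55, 10.7 and 11.3 FPKM against 3.73, 6.15 and 6.72 FPKM, a log2 difference of 0.68 (SE 0.265, limma adjusted p = 0.186, and 0.0430 with the block), and same-numbered samples differed by 0.67, 0.71 and 0.67. The block thus took the members called from 1 to 4, while it left the genes called at 241 in place of 247, of which 151 were shared.

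**Figure D2:**
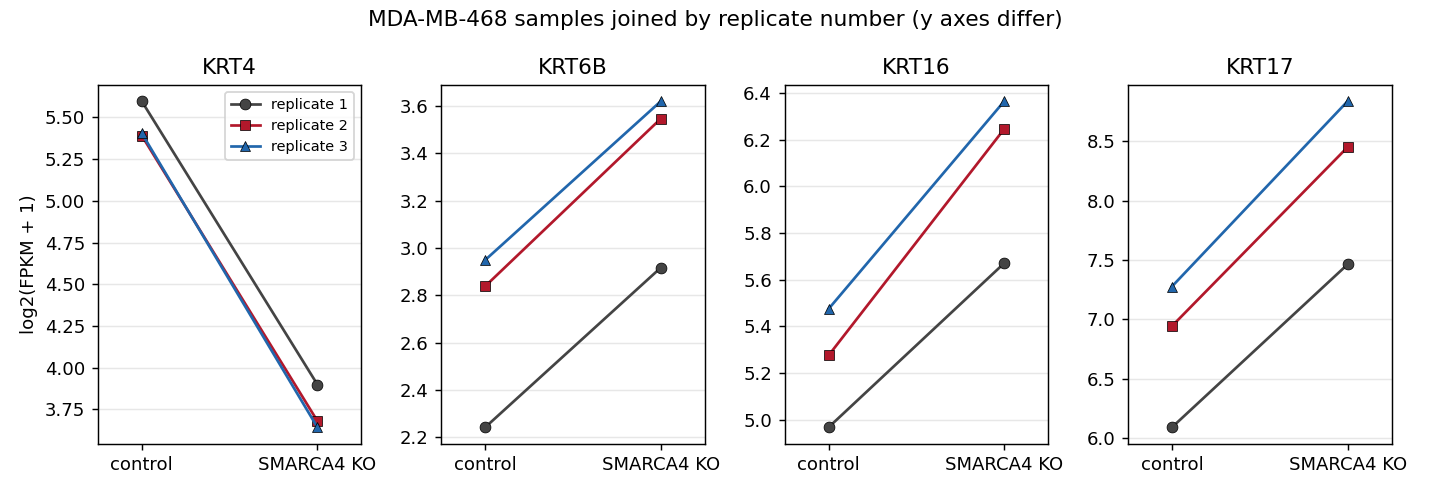
Log2(FPKM + 1) of KRT4, KRT6B, KRT16 and KRT17 in the MDA-MB-468 control and SMARCA4 KO samples, with lines joining samples of the same replicate number; the y axes differ between panels. The lines of KRT17 span differences of 1.38 to 1.56 and those of KRT4 of -1.76 to -1.70, and replicate 1 is lowest in both groups for KRT6B, KRT16 and KRT17.

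The numbering is open to another reading. A second number in the sample descriptions, written after the letter p and not explained there, was 26, 27 and 28 for control replicates 1 to 3 of this line and 25, 26 and 27 for KO replicates 1 to 3. Matched on p 26 and p 27, the log2 differences were 2.36 and 1.90 for KRT17, 1.30 and 0.78 for KRT6B, 1.28 and 1.09 for KRT16 and -1.92 and -1.75 for KRT4. With this number as a block 0 genes were called, KRT4 included (limma adjusted p = 0.14), although 2218 genes had an unadjusted p under 0.05. That block also joined control p 28 with KO p 25, which share no number, so 1 of its pairs was not a match. The part of this pair in the loss of calls was not tested. KRT4, KRT16, KRT17 and KRT6B kept their directions under both pairings.

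KRT5 and KRT6A were not called in any of the fits run for MDA-MB-468. KRT5 differed by 0.35 on the log2 scale (SE 0.239, 95% interval -0.24 to 0.94, limma adjusted p = 0.408), with overlapping groups. KRT6A was at 5.73, 7.03 and 7.38 FPKM in the KO samples against 6.48, 14.5 and 11.7 FPKM, a log2 difference of -0.57 (95% interval -1.25 to 0.12, limma adjusted p = 0.269). KRT6A and KRT6B, which are near-identical, so had differences of opposite sign. The log2 level of KRT6B minus that of KRT6A was -0.83 ± 0.251 (SD, n = 3) in the control samples and 0.42 ± 0.22 in the KO samples, and the samples did not overlap. This pair was set side by side after its values were seen, and no test of it was made.

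KRT8 was the luminal keratin with the largest difference after KO in MDA-MB-468. It was at 2059, 2362 and 2377 FPKM in the KO samples against 1634, 1585 and 1593 FPKM, a log2 difference of 0.495 (SE 0.0689, limma adjusted p = 0.0318). That lies just under the difference of 0.5 that a call requires, and with the block the adjusted p was 0.0621. Without KO replicate 1 it passed both limits (0.56, limma adjusted p = 0.0175). KRT18 was at 1193, 1382 and 1376 FPKM against 1087, 1102 and 1118 FPKM, a log2 difference of 0.25 (SE 0.0701, limma adjusted p = 0.0999), also with no overlap. KRT7 and KRT19 overlapped between the groups, with log2 differences of 0.11 (95% interval -0.10 to 0.33) and 0.07 (95% interval -0.12 to 0.25), and their sign turned under quantile normalization.

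SMARCA4 KO in MDA-MB-231 cells gave no call among the 10 members, where limma called 3.7% of all genes. Unadjusted p-values were under 0.05 for 3 of them, KRT16, KRT17 and KRT19, against 31.2% of all genes. The KO samples were all above the controls for 5 members, KRT7, KRT8, KRT16, KRT17 and KRT19, against 16.6% of all genes, and all below for 0, against 19.4%. The median log2 difference of the members was 0.20, beside -0.01 over all genes.

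The luminal keratins of MDA-MB-231 varied in the controls. KRT8 was at 283, 396 and 456 FPKM in these and at 523, 495 and 481 FPKM in the KO samples, a log2 difference of 0.43 (95% interval -0.01 to 0.86, limma adjusted p = 0.165). KRT7 was at 207, 299 and 354.3 FPKM and then at 402, 403 and 356 FPKM, a log2 difference of 0.46 (95% interval -0.03 to 0.96, limma adjusted p = 0.181). KRT19 was at 197.7, 265 and 288 FPKM and then at 341, 338 and 294 FPKM, a log2 difference of 0.39 (95% interval 0.01 to 0.77, limma adjusted p = 0.152). KRT18 overlapped, at 258, 331 and 386 FPKM and then at 383, 374 and 357 FPKM, a log2 difference of 0.21 (95% interval -0.16 to 0.58). In all 4 genes control replicate 1 was the lowest sample and the KO samples lay closer together than the controls.

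Basal keratins stayed near the bottom of the MDA-MB-231 table. KRT17 was at 0.29, 0.49 and 0.27 FPKM in control and at 1.58, 0.92 and 0.56 FPKM in KO samples, a log2 difference of 0.55 (SE 0.19, limma adjusted p = 0.115). KRT16 was at 0.05, 0 and 0.03 FPKM and then at 0.19, 0.09 and 0.22 FPKM (limma adjusted p = 0.0979). KRT5 was listed at 0 in 2 samples of either group and otherwise at 0.02 FPKM in a control and 0.24 FPKM in a KO sample. KRT4 was listed at 0 in 5 of the 6 samples and at 0.02 FPKM in KO replicate 3. At these levels log2(FPKM + 1) compresses any difference, and with a pseudocount of 0.1 in place of 1 the log2 difference of KRT16 was 1.06 and that of KRT17 was 1.24.

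The difference of the KO effect between the lines was tested as an interaction in 1 fit of all samples. It was called for 1 of the 10 members, KRT4, and for 14.7% of all genes (6.83% in the direction of KRT4), at an adjusted p under 0.05. The KRT4 difference after KO was -1.72 in MDA-MB-468, and it was 0.01 in MDA-MB-231 cells, where the gene is listed at 0 in every control and could not fall. Their difference was -1.73 (SE 0.111, limma adjusted p = 1.12e-05). It restates the fall in MDA-MB-468, and its SE takes in MDA-MB-231 samples at or near 0, which hardly vary, so the test adds nothing to the fall itself, whose call was lost without each of 3 single samples.

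The block by replicate number called 3 members more. These were KRT6B (interaction 0.68, limma adjusted p = 0.107, and 0.00439 with the block), KRT16 (0.67, 0.0723 and 0.00962) and KRT17 (0.93, 0.216 and 0.0221). KRT6B is listed at 0 in all MDA-MB-231 samples, so its interaction equals its difference in MDA-MB-468 and is no comparison of the lines, and KRT16 was near 0 there. With a pseudocount of 0.1 the interaction of KRT16 turned to -0.19, so that a call for this gene rests on the scale. KRT17 was low in MDA-MB-231 samples too, at 0.27 to 1.58 FPKM. Its mean FPKM after KO was 2.91 times the control mean there, and 2.86 times in the other line. The KRT17 interaction ran from 0.25 to 1.32 over 18 alternatives. As a ratio of FPKM its change thus hardly differed between the lines, and its call with the block rests on the scale as well. For KRT8 and KRT18 the interaction was 0.07 (95% interval -0.35 to 0.49) and 0.04 (95% interval -0.33 to 0.41), for KRT7 -0.35 (95% interval -0.83 to 0.14) and for KRT19 -0.32 (95% interval -0.71 to 0.06). None of these luminal genes was called, and the intervals still include differences beyond 0.3. KRT5, at 0.26 (95% interval -0.31 to 0.82), and KRT6A, at -0.57 (95% interval -1.18 to 0.05), were not called either.

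The make-up of the keratin RNA was described by summing FPKM over the 10 members in each sample, without a test. In MDA-MB-468 the sum was 6423, 6191 and 6293 in the control samples and 7082, 7887 and 8065 in the KO samples, with no overlap, and it made up 0.913% and 1.104% of the FPKM of all genes. In MDA-MB-231 it was 947, 1291 and 1485 in control and 1651, 1612 and 1489 in KO samples, or 0.181% and 0.233%. The KO samples of both lines lay above their controls, in MDA-MB-231 by a narrow margin between control replicate 3 and KO replicate 3.

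Basal keratins took 6.97%, 11.02% and 12.95% of this sum in MDA-MB-468 control samples and 10.3%, 13.5% and 15.5% in KO samples, which overlap. Same-numbered samples were each higher in the KO cells. In MDA-MB-231 the basal share was 0.0318% ± 0.00895 (SD, n = 3) in control and 0.0795% ± 0.0242 in KO cells. Single genes took other shares of the sum after KO in MDA-MB-468. KRT17 went from 1.82% ± 0.714 (SD, n = 3) to 4.19% ± 1.61 and KRT4 from 0.686% ± 0.0453 to 0.163% ± 0.0293, while KRT8 took 25.5% ± 0.142 and then 29.5% ± 0.435 and KRT19, the leading member in the controls, 31.6% ± 2.24 and then 27.2% ± 2.87.

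Type II keratins made up 47.4%, 49.2% and 49.0% of the sum in MDA-MB-468 control samples and 49.5%, 50.9% and 51.3% in KO samples. In MDA-MB-231 they made up 51.8%, 53.8% and 54.6% and then 56.0%, 55.7% and 56.2%. The share of type II thus ran from 47.4% to 56.2% over the 12 samples, and the KO samples were on the type II side of their controls in both lines. KRT8 is the gene with most of that type. Its log2 level minus that of its partner KRT18 was 0.54 ± 0.0405 (SD, n = 3) in MDA-MB-468 control and 0.78 ± 0.00874 in KO cells, and 0.21 ± 0.0656 and 0.43 ± 0.0223 in MDA-MB-231. The samples did not overlap in either line. KRT8 and KRT18 overlap on opposite strands and both share sequence with pseudogenes, and the part of either in this difference was not tested.

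KRT5 and KRT17, basal keratins of opposite type that are not each other's main partner, drew together after KO in MDA-MB-468. The log2 level of KRT5 minus that of KRT17 was 2.33, 2.03 and 1.95 in control and 1.48, 0.83 and 0.60 in KO samples. KRT16 and KRT6B, which are partners, kept a spacing of -2.56 ± 0.147 and -2.73 ± 0.0291 (KRT6B minus KRT16), whereas KRT6A minus KRT16 was -1.73 ± 0.38 and then -3.15 ± 0.204. These spacings were not tested.

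The table held 6 further keratin genes, KRT10, KRT14, KRT15, KRT23, KRT80 and KRT81. KRT10, a type I keratin of the differentiating epidermis, rose after KO in MDA-MB-468, from 18.1, 21.3 and 21.3 FPKM to 43.2, 47.5 and 38.6 FPKM (log2 difference 1.05, SE 0.101, limma adjusted p = 0.0147, and 0.0449 with the block). It differed by -0.15 in MDA-MB-231. KRT15, a type I keratin of basal cells, rose in both lines, from 80.9, 66.4 and 80.2 FPKM to 118, 112 and 112 FPKM in MDA-MB-468 (0.59, limma adjusted p = 0.0342, and 0.0526 with the block) and from 5.80, 5.86 and 5.10 FPKM to 15.5, 14.99 and 13.5 FPKM in MDA-MB-231 (1.247, limma adjusted p = 0.00512). Leaving out single samples of MDA-MB-468, KRT10 lost its call in 5 of 6 fits, all but the one without KO replicate 1 (adjusted p 0.0255 to 0.0814), and KRT15 in 6 of 6 (adjusted p 0.0522 to 0.132). KRT15 kept its call in 6 of 6 fits of MDA-MB-231.

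KRT14, the partner of KRT5, was not called in either line, with log2 differences of 0.00 for MDA-MB-468 (95% interval -0.60 to 0.60) and 0.15 for MDA-MB-231. KRT81, a hair keratin, was at 22.5, 44.7 and 55.3 FPKM in MDA-MB-231 control and at 16.8, 14.02 and 11.7 FPKM in KO samples, a log2 difference of -1.38 (SE 0.34, limma adjusted p = 0.0564). KRT23 and KRT80 were not called, with log2 differences of 0.31 and 0.57 in the former and 0.00 and 0.43 in the latter line, where KRT23 is listed at 0. Interactions were called for KRT10 (1.20, limma adjusted p = 0.000811), KRT15 (-0.66, limma adjusted p = 0.00638) and KRT81 (1.80, limma adjusted p = 0.0135). Of the pseudogenes KRT8P3 and KRT8P12, which share sequence with KRT8, neither was called after KO, with log2 differences of 0.17 and 0.04 for MDA-MB-468 and 0.49 and 0.06 for MDA-MB-231.

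Keratin filaments end at desmosomes, which join neighbouring cells, and at hemidesmosomes, which hold basal cells to the basement membrane. After KO, the shares over all genes beside which the counts of the following lists stand were 2.14% called and 25.1% with an unadjusted p under 0.05 in MDA-MB-468, and 3.7% and 31.2% in MDA-MB-231. Of 14 genes listed for desmosomes and their keratin anchors 12 were in the table. After KO 0 of them were called in MDA-MB-468 (5 had an unadjusted p under 0.05, and the list's median log2 difference was -0.03), and 1 was called in MDA-MB-231 (3 under 0.05, median 0.08). That gene was PPL (periplakin, a linker of keratins to desmosomes), with a log2 difference of 1.01 (limma adjusted p = 0.0263). All 9 hemidesmosome genes were in the table, with 0 called in MDA-MB-468 (2 under 0.05, median 0.08) and 1 in MDA-MB-231 (4 under 0.05, median 0.16), ITGB4 (integrin beta 4), with a log2 difference of 0.78 (limma adjusted p = 0.0386).

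Between the control lines the desmosome list was called higher in MDA-MB-468 for 9 genes and lower for 2 of 12, against 32.7% and 31.4% of all genes. Among them DSC3 is listed at 0 in MDA-MB-231 controls and could only be higher. EPPK1 was near 0 in MDA-MB-231 and PPL is listed at 0 in MDA-MB-468, so the filter fixed the direction of both. DSC2, at a mean log2 level of 0.84 in MDA-MB-231 controls, entered the table through MDA-MB-468, which fixed its direction too. The hemidesmosome list was called lower in MDA-MB-468 for 9 of 9 genes, with a median log2 difference of -2.00. COL17A1 was near 0 in MDA-MB-468 and entered the table through MDA-MB-231, which fixed its direction, so its difference (-3.13) is given without a p. Examples of the other genes are LAMB3 (-4.02) against DSP (2.17), JUP (1.85) and PKP3 (2.05), all with limma adjusted p under 0.05.

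Among 12 genes of other intermediate filaments 7 were in the table, and their median log2 difference after KO was 0.22 for MDA-MB-468 and -0.01 for MDA-MB-231. None was called in MDA-MB-468 (3 with an unadjusted p under 0.05) and NES (nestin) was called lower in MDA-MB-231 (-0.71, limma adjusted p = 0.0382). VIM, the filament of mesenchymal cells, differed by -0.39 there (limma adjusted p = 0.0309), under the limit of 0.5, and the mesenchymal markers together were at 1605 to 1830 FPKM in control and 1247 to 1361 FPKM in KO samples. Their part in the keratin values was not tested. The epithelial markers overlapped between the groups of MDA-MB-231, at 94.7 to 124.9 and 105.6 to 140.7 FPKM, although CDH1 (E-cadherin) was called (0.54, limma adjusted p = 0.0442). In MDA-MB-468 they were at 755.9 to 802.6 and 682.5 to 757.1 FPKM, and limma called 0 of the 6 (2 with an unadjusted p under 0.05).

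Of 18 transcription factors known to act on epithelial genes 14 were in the table, and 12 of them were called higher in MDA-MB-468 control cells, against 32.7% of all genes. FOXA1, GRHL2, GRHL3 and OVOL2 were near 0 in MDA-MB-231 controls, so the filter fixed their direction. It fixed that of GRHL1 too, which had a mean log2 level of 0.64 there and entered the table through MDA-MB-468. After KO in MDA-MB-468 FOXA1 (a factor of luminal cells) fell by 0.80 on the log2 scale (limma adjusted p = 0.0322, and 0.0412 with the block) and FOXC1 (a factor of basal-like tumours) rose by 0.80 (limma adjusted p = 0.0465, and 0.0580 with the block). The list's median was -0.05, and 6 of 14 had an unadjusted p under 0.05. In MDA-MB-231 ELF3 rose by 1.14 (limma adjusted p = 0.0312) and EHF by 0.51 (limma adjusted p = 0.0206), both ETS factors of epithelia, and FOXC1 fell by 0.51 (limma adjusted p = 0.0362). There the list's median was 0.09, with 6 of 14 under 0.05. FOXC1 was thus called in opposite directions, and its interaction was 1.31 (limma adjusted p = 0.00118).

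Genes of squamous differentiation, which KRT6A, KRT6B, KRT16 and KRT4 often accompany in stratified epithelia, gave no call after KO. Of 17 listed, 8 were in the table, and between the control lines all 8 were called higher in MDA-MB-468, against 32.7% of all genes. IVL, S100A7, S100A8, S100A9 and KLK5 were at or near 0 in MDA-MB-231 controls and entered the table through MDA-MB-468, which fixed their direction. After KO an unadjusted p was under 0.05 for 3 of them in the first line and for 1 in the second, and the medians were 0.03 and 0.00. Single samples decided many calls of these lists. Leaving out samples of MDA-MB-468 in turn, FOXA1 kept its call in 1 of 6 fits (without KO replicate 1) and FOXC1 in 0. In MDA-MB-231 ITGB4, FOXC1 and CDH1 kept it in 0 of 6 PPL in 1 (without KO replicate 3), NES in 1 (without KO replicate 1), EHF in 1 (without control replicate 2) and ELF3 in 2 (without control replicate 2 or KO replicate 3).

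The genes whose 12 values most resembled those of KRT4, after each gene's own mean was taken off, were CYP4B1, CRYAB and CLDN10, by the root mean square difference over the samples. It was 0.188 on the log2 scale for CYP4B1, 0.245 for CRYAB and 0.294 for CLDN10. The mean log2 levels of CYP4B1 were 5.43 in MDA-MB-468 control and 3.81 in KO cells, beside 5.46 and 3.74 for KRT4, and those of CRYAB were 5.66 and 4.17 and of CLDN10 5.81 and 4.42. All 3 are listed at 0 in every MDA-MB-231 sample.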

How the data were processed

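RNA sequencing of 12 samples was used. The authors trimmed reads (Trimmomatic), aligned them to hg19 (STAR), estimated FPKM (RSEM), left out genes under 1 in mean or SD of FPKM, and deposited log2(FPKM + 1) values of 11529 genes. On the values, the smallest mean was 1.07 and the smallest SD 1.00. Groups came from the sample labels. Each comparison was a limma 3.58.1 fit (lmFit, eBayes without trend, R 4.3.3) of the deposited log2 values of all genes in its samples. Adjusted p-values are Benjamini-Hochberg. The interaction used 4 group means over 12 samples and was called at an adjusted p under 0.05 alone. Genes at 0 in every sample of a fit have no variance of their own. FPKM was taken back as 2 to the deposited value, minus 1. The table does not give depth, so it is unknown and no interval from counts is given.

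Deviations from the group mean correlated between same-numbered control and KO samples by 0.254, 0.161 and 0.119 in MDA-MB-468, so the number, from the sample titles, was taken to pair them, and by -0.0543, 0.0741 and -0.115 in MDA-MB-231, where it was not. No correlation was computed between samples with different numbers, so these values do not show that this pairing is the right one. Fits were tested on simulated data. The 10 keratins, all named, and the gene lists were chosen with earlier results of these data known, so counts and medians over them are descriptions. From each list the genes called after KO are named, at most 4 by size, and for keratins called, the 3 genes most alike. Transcript windows and positions came from GENCODE release 44 on GRCh37. Alternatives were a pseudocount of 0.1, scaling to the 75th percentile, quantile normalization, only genes with a mean log2 over 2, a trend, 1 fit of all samples, replicate blocks, sums over every keratin and leaving out each sample. Figures used matplotlib 3.10.9.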

Additional observations from a re-analysis of the deposited data

Results flagged for a closer look

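The effect of SMARCA4 KO differed between the lines, by limma's interaction test over all genes, for 4 keratins. The difference, given as the log2 change in MDA-MB-468 minus that in MDA-MB-231, was -1.73 for KRT4, 1.20 for KRT10, -0.66 for KRT15 and 1.80 for KRT81. KRT4 is listed at 0 in every control of MDA-MB-231 and FOXA1 was near 0 there, so a fall of either could be seen only in MDA-MB-468 and the difference restates it. Among the partner genes and markers called after KO in either line it was -0.76 for CDH1, -1.001 for EHF, -0.95 for ELF3, -0.79 for FOXA1, 1.31 for FOXC1, 0.91 for NES and -1.01 for PPL. PPL is listed at 0 in every MDA-MB-468 sample, so its value restates its rise in MDA-MB-231, a call kept in 1 of 6 fits there. NES had a mean log2 level of 0.27 in MDA-MB-468 controls, so a fall like that in MDA-MB-231 (-0.71) could not be seen there. The NES call in MDA-MB-231 was also kept in 1 of 6 fits. Another 6 genes of the lists also passed, at 1.15 for LAMB3, 0.81 for VIM, -0.48 for IVL, 0.43 for SFN, 0.38 for PKP2 and -0.40 for TFAP2C, and IVL too is listed at 0 in MDA-MB-231 controls. SMARCA4 itself differed by 0.41, being lowered more in MDA-MB-231. Leaving out 1 of the 12 samples at a time, ELF3 lost this call in 7 fits (adjusted p 0.0124 to 0.0646) and SMARCA4 in 6 (0.0108 to 0.0668), and KRT4, KRT10, KRT15, KRT81, CDH1, EHF, FOXA1, FOXC1, NES and PPL kept it in 12 of 12, while the 6 genes added above were not refitted in this way. At an adjusted p under 0.05, 14.7% of all genes differed in this way.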

How the results depend on the processing

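With 3 samples a group, calls near the threshold moved easily. In MDA-MB-468, limma called 247 genes and 1 keratin. One fit of all samples called 537 and 4 (KRT4, KRT6B, KRT16, KRT17). Its spread takes in the MDA-MB-231 samples, where these keratins were low or at 0 and varied less. Nothing is therefore read from the keratin calls it added. The replicate block called 241 and 4 (KRT4, KRT6B, KRT16, KRT17), and it ended the calls of KRT15 and FOXC1 and changed no other call of a gene named in that line. The block by p number, which also joined the samples without a shared number, called 0 and 0 (2218 genes with an unadjusted p under 0.05). Leaving out samples gave 0 to 474 genes and 0 to 3 keratins: 0 genes without control replicate 2 or KO replicate 2 (2288 and 2023 under 0.05), 5 without KO replicate 3, 12 and 27 without control replicates 3 and 1, and 474 without KO replicate 1, with KRT4, KRT8 and KRT16 called. In MDA-MB-231, 426 genes became 0 with the block (3126 under 0.05, SMARCA4 and KRT15 adjusted p = 0.052) and 99 to 311 without single samples, fewest without KO replicate 2 and most without KO replicate 3; the keratins called stayed at 0. The interaction called 1699 genes and 1 keratin, against 2 keratins with quantile normalization and 4 with the block, and 924 to 1897 genes and 1 to 4 keratins without single samples (KRT6A as well without MDA-MB-468 control replicate 1, KRT16 without control replicate 3).

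Directions turned for differences that were not called. With quantile normalization the KO difference in MDA-MB-468 was -0.013 for KRT7 and -0.17 for KRT19, and the interaction -0.11 for KRT8 and -0.16 for KRT18. With a pseudocount of 0.1 the interaction was -0.15 for KRT5 and -0.19 for KRT16, and with scaling to the 75th percentile -0.0058 for KRT18. Leaving out samples, the MDA-MB-231 difference ran from 0 to 0.014 for KRT4 and from -0.0095 to 0.15 for KRT5, and the interaction from -0.080 to 0.26 for KRT8 and from -0.091 to 0.20 for KRT18. Scaling to the 75th percentile moved the share of calls that were higher from 64.6% to 74.2% in MDA-MB-231 cells and from 53.7% to 41.6% for the interaction. Summed over all 16 keratins, the sum was 6863 (control) and 8456 (KO) FPKM for MDA-MB-468 and 1711 for MDA-MB-231 KO cells. In MDA-MB-231 type II made up 57.8% in KO cells (control 56.4%). Basal keratins, with KRT14 and KRT15 here counted among them, made up 0.936% (control 0.457%), a share of a wider gene set than above. KRT15 was at a mean of 14.6 FPKM in these KO cells. The causes of these shifts were not tested. Of the values compared, 165 summary values stayed within their limits and 37 did not, and of the single-gene values 978 kept direction and side of the threshold, 101 lost and 17 gained a call and 11 turned. The unknown depth limits the genes near 0.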
